A study of Rattus norvegicus with 4 samples.

Results

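Whole retinas of albino Lewis rats aged 20 weeks were compared with whole retinas of the same strain aged 5 weeks, which asks how expression changes while the retina matures. The comparison rests on 2 of the 4 arrays of the study, all of them 2-colour arrays that took up pooled retinal RNA from an older and a 5-week age at once, and the other 2 set 11 weeks against 5 weeks. The arrays were taken by their titles: one carried the 20-week retina in the red dye Cy5 and the 5-week retina in the green dye Cy3, and is called the Cy5 array below, and the other carried them the opposite way and is called the Cy3 array. The rats had been kept from birth in ordinary laboratory housing with a daily light cycle, and the labels name no treatment. How many animals were pooled, and of which sex, is not stated in the labels. Values are log2 ratios of the 20-week over the 5-week retina, so a value of 0 is the median probe of that array and a positive value is higher at 20 weeks. Cy5 over Cy3 was assumed as the direction of the deposited ratios, which the titles make likely, and if it ran the other way every "higher" and "lower" would be exchanged.

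The rat retina has all its layers and cell types before 5 weeks, but the eye keeps growing while photoreceptors renew their outer segments every day. Rods are by far the most frequent cells of the rat retina, Müller glia span its whole thickness and clear glutamate, and ganglion cells send the axons of the optic nerve, which become myelinated only after leaving the eye. A dye swap hybridises the same comparison with the dyes exchanged, so that a gene whose ratio follows the dye shows opposite signs on the arrays once both are read as 20 over 5 weeks. In whole tissue, fewer cells of a type and less RNA per cell cannot be told apart. Since each array gives a ratio and no level, the retina's defining genes could be followed only by their change.

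A gene is called passed where limma, a linear model fitted to all 9652 genes on all 4 arrays with a gene-wise dye term, gave a Benjamini-Hochberg adjusted p under 0.05 (two-sided) and both 20-week arrays pointed the same way. Of 9652 genes, 1389 passed as higher at 20 weeks (14.4%) and 1218 as lower (12.6%), so 27% passed in either direction. The labels do not say whether the 2 arrays held separate RNA. A p-value here does not measure the spread between the 2 arrays of 20 weeks, which goes into the dye term. Its error comes from how far the dye effects of the 20-week and 11-week pairs differ, with spread shared across genes. That difference is possibly a technical one. Slc30a2, at 0.28 and 1.73 on the Cy5 and Cy3 arrays, had a standard error of 0.070. If both arrays held the same extracts, there was 1 pool per age and no test is possible. In data simulated with an equal dye effect on all arrays and few changed genes, the model recovered nearly all changes of 1.5-fold and more. In most draws, however, unchanged genes were a larger share of its calls than the threshold aims at. Without the dye term 0 genes passed (888 at an unadjusted p under 0.05), and with the dye term but uncentred ratios, as deposited, the calls were 132 higher and 0 lower. A second rule therefore stands beside it, with no test: a log2 ratio of at least 0.32 in size, in the same direction on both arrays, called the fold limit below. It held for 318 genes higher (3.29%) and 168 lower (1.74%). All 486 of them had also passed, but both rules draw on the same 2 arrays of 20 weeks, so this is no separate support.

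How far the 2 arrays agreed depended on the size of the change. Over all genes, 5196 of 9652 (53.8%) pointed the same way on both, and across genes, which are not independent replicates, the arrays correlated with a Pearson r of 0.17 and a Spearman rho of 0.12. Past the fold limit on both arrays, 486 genes pointed the same way and 219 opposite ways. Past 1.5-fold the counts were 92 and 11, with 76 of the 92 higher and 16 lower at 20 weeks. Past 2-fold, 8 genes were higher on both arrays, 0 were lower on both, and 1 pointed opposite ways. The dye effect had an SD of 0.19 across genes, against 0.23 for the mean change, and the dye effects of the 20-week pair and the 11-week pair correlated at 0.82 across genes. Among genes with several probes, all probes had one sign in 404 of 456 that passed (88.6%), against 724 of 1810 that did not (40%). Genes were tested on the mean of their probes, so opposed probes make a call less likely. These shares are therefore no separate check of the calls. Because agreement depended on size, small changes are read below by groups, and single genes mainly where both arrays show them.

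**Figure D1:**
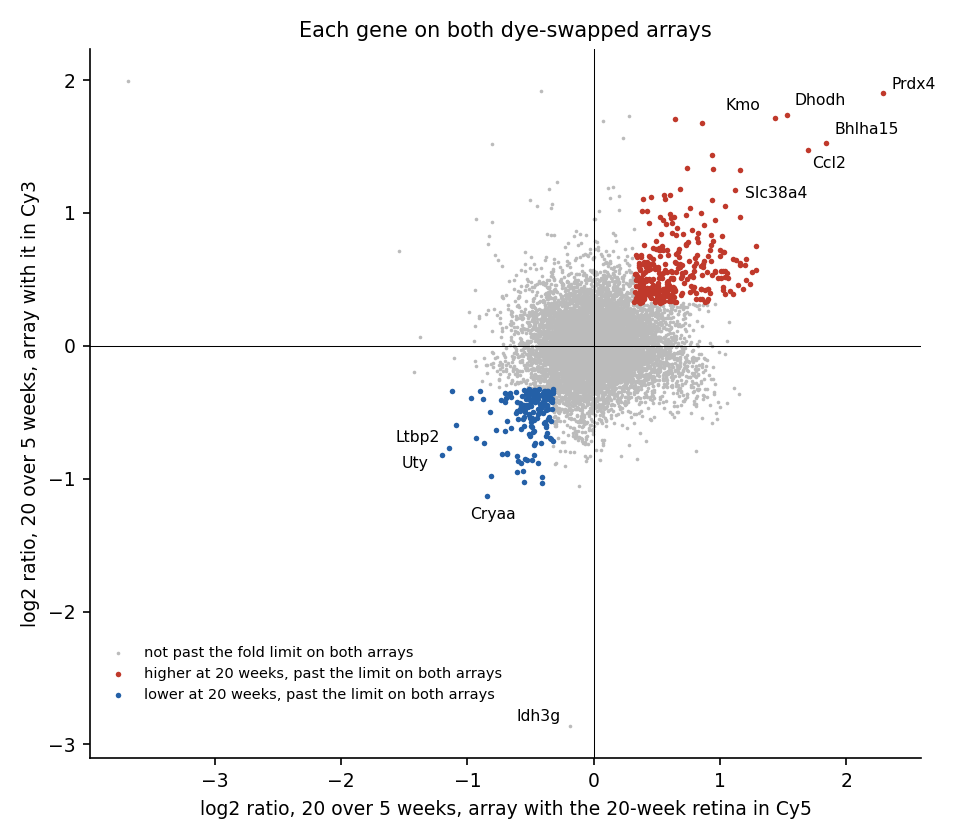
Each point is 1 of the 9652 genes, with its log2 ratio of 20 over 5 weeks on the Cy5 array (x axis) and the Cy3 array (y axis). The 318 red points were higher and the 168 blue points lower than the fold limit of 0.32 on both arrays, while most genes form a round cloud about 0. Prdx4 stands farthest to the upper right at 2.29 and 1.90, and Idh3g lies near 0 on the x axis and at -2.86 on the y axis.

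The 20-week retina was set apart most by Prdx4, the peroxiredoxin that reduces peroxide inside the endoplasmic reticulum. Its log2 ratio was 2.29 on the Cy5 array and 1.90 on the Cy3 array, a mean of 4.27-fold higher at 20 weeks (adjusted p = 2.58e-07, limma). Bhlha15, a transcription factor that sets up the secretory apparatus of gland and plasma cells, gave 1.84 on the Cy5 array and 1.53 on the Cy3 array, or 3.22-fold (adjusted p = 1.08e-06). Both arrays placed these genes far above the fold limit, and their values at 11 weeks over 5 weeks, a comparison that shares the 5-week retina, were 0.34 and -0.085 for Prdx4 and 0.41 and 0.27 for Bhlha15, in the same order of arrays. Dhodh, the mitochondrial dehydrogenase of pyrimidine synthesis, gave 1.53 on the Cy5 array and 1.73 on the Cy3 array. Kmo, which hydroxylates kynurenine in tryptophan breakdown, gave 1.44 on the Cy5 array and 1.71 on the Cy3 array, and Ccl2, the chemokine that attracts monocytes, 1.70 on the Cy5 array and 1.48 on the Cy3 array. These last 3 genes were 3.1, 2.98 and 3.01-fold higher, and their adjusted p was 1.08e-06, 1.30e-06 and 1.29e-06. Unlike Prdx4 and Bhlha15, they were already well above 0 at 11 over 5 weeks. There Dhodh gave 0.805 and 1.10, Kmo 0.905 and 0.99 and Ccl2 0.86 and 0.79, in the same order of arrays.

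The other 15 of the 20 highest genes had varied functions. Rpf2, a ribosome assembly factor, gave 1.16 and 1.33 on the Cy5 and Cy3 arrays, and Myc, a transcription factor of growth, 1.29 and 0.57. Slc38a4, a carrier of neutral amino acids, gave 1.12 and 1.17, and the arrays lay close together. Slc34a1, the kidney phosphate carrier, gave 0.65 and 1.70, and Slc30a2, a zinc exporter, 0.28 and 1.73, so that their size rests mostly on the Cy3 array. Slc30a2 was under the fold limit on the Cy5 array, the one gene of the 20 highest to miss the second rule. Gchfr, the feedback regulator of the enzyme that starts tetrahydrobiopterin synthesis, gave 1.04 and 1.06. Cd52, a surface glycoprotein of leukocytes, gave 0.74 and 1.34. Tmc1, a part of the transduction channel of inner-ear hair cells, gave 0.95 and 1.33, Tas2r107, a bitter taste receptor, 0.69 and 1.18, and Tcam1, known from testis, 0.93 and 1.10, so genes best known from other organs stand among the highest. The other members of the 20 highest were Insc at 1.27, Alox12e at 1.19, Cryzl2 at 1.06, Mthfd2 at 1.02 and Scgb1d4 at 0.95, as means of the arrays. The adjusted p of the 15 genes in this paragraph lay between 7.00e-06 and 5.81e-05.

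Among the 20 lowest genes, 6 encode proteins of the extracellular matrix or its regulation, a grouping made after the values were seen. Ltbp2, a microfibril protein, was lower at 20 weeks on both arrays, at -1.14 on the Cy5 array and -0.77 on the Cy3 array, or 1.94-fold lower (adjusted p = 3.15e-05). Ccdc80 gave -0.55 and -1.03, Sparc, a collagen-binding matrix protein, -0.56 and -0.94, Fstl1, a secreted glycoprotein, -0.60 and -0.87, and Col4a3, a basement membrane collagen chain, -1.12 and -0.34. Col15a1, another basement membrane collagen, gave -1.43 and -0.19, but its probes disagreed in size, with means of -0.26 and -1.36, and the larger came from 1 array at -2.71. Of 15 measured collagen genes, 5 passed as higher (33.3%, against 14.4% of all genes) and 3 as lower (20%, against 12.6%). The collagen median was 0.14. Cryaa, the alpha-A crystallin, gave -0.84 on the Cy5 array and -1.13 on the Cy3 array and was 1.98-fold lower (adjusted p = 2.45e-05). Uty, a gene of the Y chromosome, gave -1.20 on the Cy5 array and -0.83 on the Cy3 array, and the labels give no sex for either pool.

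The remaining 12 of the 20 lowest had varied functions. Zfp385a, an RNA-binding zinc finger protein, gave -0.82 and -0.98, Rap1gds1, an exchange factor of small GTPases, -0.93 and -0.70, Rab15, an endosomal GTPase, -1.09 and -0.60, and Rgs10, which speeds GTP hydrolysis by G proteins, -0.87 and -0.73. All 4 were past the fold limit on both arrays. Pan3, of the poly(A) nuclease, gave -0.72 and -0.82, Hmgn2, a nucleosome-binding protein, -0.61 and -0.95, and Pde1a, a calmodulin-dependent phosphodiesterase, -0.57 and -0.88. Of the sperm genes Tsks and Gapdhs, Tsks gave -0.68 and -0.82 and Gapdhs -0.41 and -1.03, and Cnp and Guca1b are described with their cell types. Idh3g had the lowest mean, -1.52, but on the strength of 1 spot: of its 2 probes, one gave -0.15 and -0.096 on the Cy5 and Cy3 arrays and the other -0.22 and -5.62. The lower value is therefore not counted as a change of this gene.

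**Figure D2:**
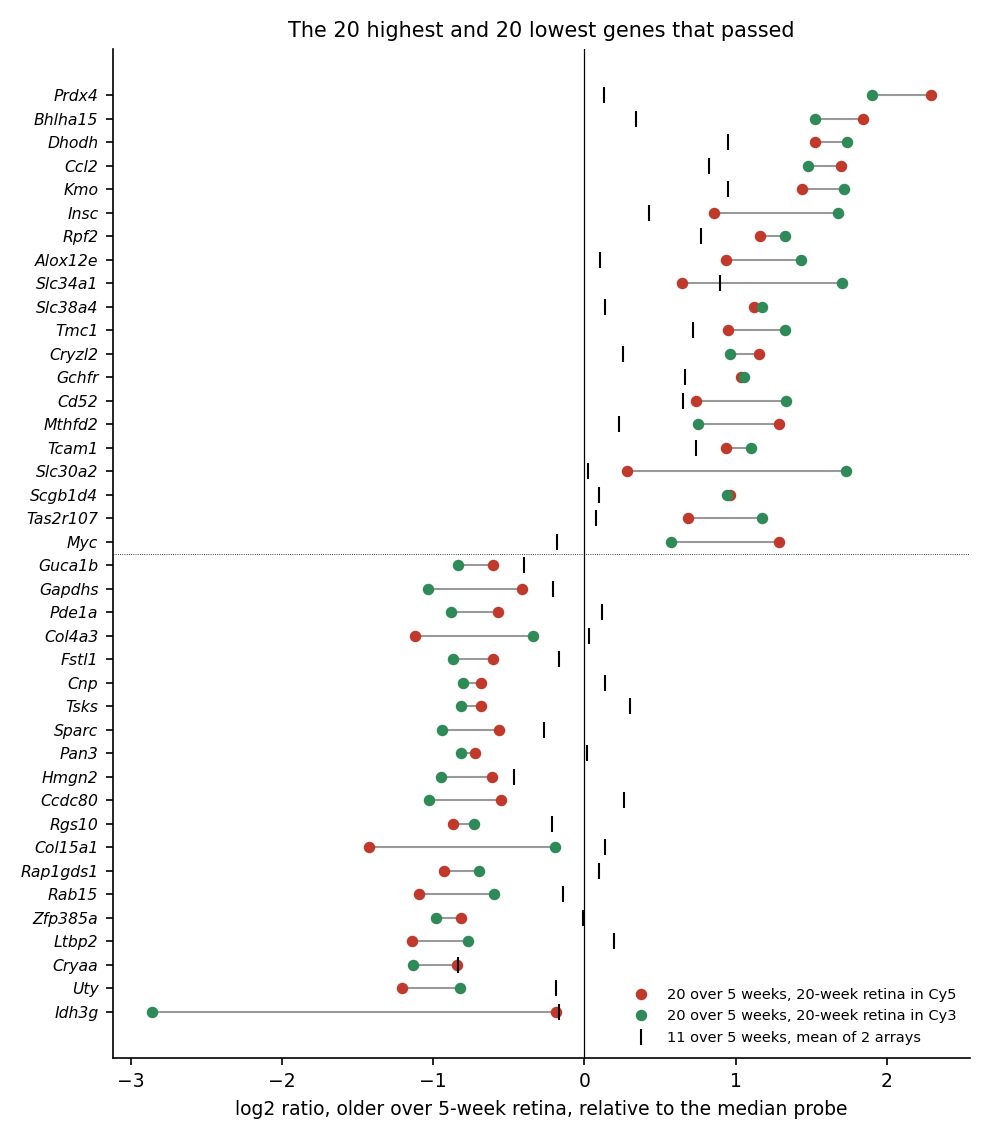
The 20 highest (top) and 20 lowest (bottom) genes that passed, with the log2 ratio of 20 over 5 weeks on each array as points joined by a line and the mean at 11 over 5 weeks as a black tick. Prdx4 and Bhlha15 lie far to the right of their ticks, while Cryaa lies beside its tick, and the long lines of Idh3g, Slc30a2 and Col15a1 mark genes whose arrays differ most.

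Several cytosolic aminoacyl-tRNA synthetases, which charge each tRNA with its amino acid, were higher at 20 weeks than at 5 weeks. Of 23 measured, 8 passed as higher (against 14.4% of all genes), 1 as lower and 14 did not pass, and 5 were past the fold limit on both arrays (against 3.29%). The family's median was 0.15, against 0.013 for all genes. It was 0.14 on the Cy5 array and 0.0505 on the Cy3 array, and 13 of the 23 pointed the same way on both. Many of these enzymes, and the enzymes and carriers that supply amino acids, are known targets of ATF4, a transcription factor that is translated when amino acids are short or unfolded proteins collect, and that binds amino acid response elements. The core TGATGNAA (N is any base, searched on both strands, chosen after the values were seen) was looked up in RefSeq promoters of the GRCr8 assembly, from 250 bases before to 50 after the start. It occurs in 3.82% of the 27457 promoters in the table and in 2.19% of the 7934 tested genes with an entry. It occurs in 5 of the 8 synthetases that passed as higher and in 0 of the other 14 with an entry, and all 5 carry the form TGATGCAA, which 0.643% of tested genes do. Over all genes passed as higher the core was about as frequent as elsewhere, at 2.39%, and over those passed as lower it was at 1.07%. These 5 promoters, and those of the amino acid carrier Slc7a1 and the glutathione-cleaving enzyme Chac1, are shown to place the core, which is in capitals, is TGATGAAA in Slc7a1, and reads TTGCATCA where it lies on the opposite strand.
Tars1: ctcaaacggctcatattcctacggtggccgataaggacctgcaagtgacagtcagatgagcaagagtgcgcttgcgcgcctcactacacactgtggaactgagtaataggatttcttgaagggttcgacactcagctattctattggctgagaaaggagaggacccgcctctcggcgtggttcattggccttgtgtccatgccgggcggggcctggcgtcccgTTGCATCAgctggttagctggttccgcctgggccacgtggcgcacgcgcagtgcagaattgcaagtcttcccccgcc
Iars1: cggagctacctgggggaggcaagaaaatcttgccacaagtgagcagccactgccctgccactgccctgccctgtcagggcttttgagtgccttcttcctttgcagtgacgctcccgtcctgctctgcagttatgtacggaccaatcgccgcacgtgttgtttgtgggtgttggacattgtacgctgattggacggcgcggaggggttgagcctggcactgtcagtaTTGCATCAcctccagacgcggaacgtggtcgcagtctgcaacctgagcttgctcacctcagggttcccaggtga
Cars1: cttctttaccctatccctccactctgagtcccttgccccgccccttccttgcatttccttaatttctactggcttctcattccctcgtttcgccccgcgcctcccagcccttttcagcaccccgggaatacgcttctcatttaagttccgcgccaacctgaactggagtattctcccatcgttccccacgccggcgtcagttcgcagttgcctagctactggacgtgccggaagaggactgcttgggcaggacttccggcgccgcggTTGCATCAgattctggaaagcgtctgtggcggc
Yars1: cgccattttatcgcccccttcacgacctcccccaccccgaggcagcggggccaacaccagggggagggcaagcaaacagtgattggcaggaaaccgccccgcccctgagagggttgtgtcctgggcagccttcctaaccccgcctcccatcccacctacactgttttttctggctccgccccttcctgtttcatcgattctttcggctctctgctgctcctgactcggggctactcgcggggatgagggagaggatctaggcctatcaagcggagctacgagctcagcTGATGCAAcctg
Nars1: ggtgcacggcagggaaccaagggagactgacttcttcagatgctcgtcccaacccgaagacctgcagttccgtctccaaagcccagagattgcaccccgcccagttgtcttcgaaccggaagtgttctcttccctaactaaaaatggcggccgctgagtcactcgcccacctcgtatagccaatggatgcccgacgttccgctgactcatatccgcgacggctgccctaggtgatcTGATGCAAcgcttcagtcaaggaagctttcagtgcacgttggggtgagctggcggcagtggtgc
Slc7a1: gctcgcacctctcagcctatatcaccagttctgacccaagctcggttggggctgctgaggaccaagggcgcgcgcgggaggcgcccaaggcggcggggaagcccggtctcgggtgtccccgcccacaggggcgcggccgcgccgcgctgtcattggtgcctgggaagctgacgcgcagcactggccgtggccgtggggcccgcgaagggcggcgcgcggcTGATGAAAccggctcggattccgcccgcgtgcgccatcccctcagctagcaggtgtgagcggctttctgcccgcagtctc
Chac1: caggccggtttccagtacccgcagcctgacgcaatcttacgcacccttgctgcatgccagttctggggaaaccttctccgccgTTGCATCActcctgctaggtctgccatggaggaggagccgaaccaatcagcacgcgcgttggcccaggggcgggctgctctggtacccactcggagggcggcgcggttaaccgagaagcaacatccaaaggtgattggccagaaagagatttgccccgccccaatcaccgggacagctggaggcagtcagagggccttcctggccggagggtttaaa
They lie at chr2:62114753-62115052 (Tars1, minus strand), chr17:15193603-15193902 (Iars1, minus), chr1:208225320-208225619 (Cars1, minus), chr5:146819913-146820212 (Yars1, plus), chr18:60275733-60276032 (Nars1, minus), chr12:11664238-11664537 (Slc7a1, plus) and chr3:126795881-126796180 (Chac1, plus). In Tars1, Iars1, Nars1 and Slc7a1 the core begins within 30 bases before the annotated start, in Cars1 and Yars1 it lies after the start, and in Chac1 it begins 167 bases before it. A match is a description of these letters and was not tested for binding.

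Lars1, the leucyl enzyme, gave 0.59 on the Cy5 array and 0.69 on the Cy3 array, or 1.55-fold (adjusted p = 0.000206), and each of its 4 probes was positive on both arrays, between 0.48 and 0.83. It is without the core. Tars1, the threonyl enzyme, gave 0.52 on the Cy5 array and 0.72 on the Cy3 array, or 1.54-fold (adjusted p = 0.000895). Iars1, the isoleucyl enzyme, gave 0.63 on the Cy5 array and 0.51 on the Cy3 array, with both probes positive. Cars1, the cysteinyl enzyme, gave 0.38 and 0.51 on the Cy5 and Cy3 arrays, Yars1, the tyrosyl enzyme, 0.39 and 0.43, and Nars1, the asparaginyl enzyme, 0.14 and 0.29. These 6 cytosolic enzymes lay above 0 on both arrays and, apart from Nars1, past the fold limit on both. The mitochondrial enzymes Ears2 and Lars2 also passed, Ears2 at 0.67 and 0.015 and Lars2 at 0.48 and 0.027, so they were near 0 on the Cy3 array. Kars1, the lysyl enzyme of cytosol and mitochondria, gave -0.51 and -0.14 and was the one member to pass as lower. At 11 over 5 weeks the same arrays' order gave -0.21 and 0.0045 for Lars1, 0.032 and -0.25 for Tars1, -0.35 and -0.25 for Iars1, -0.33 and -0.21 for Cars1, 0.097 and 0.17 for Yars1 and -0.25 and -0.035 for Nars1. The mitochondrial enzymes gave 0.66 and 0.023 for Ears2, close to its values at 20 weeks, and 0.06 and -0.23 for Lars2.

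A panel of 28 genes known to respond to ATF4 or to amino acid shortage was drawn up after the values had been seen. Of the 28, 12 passed as higher, 1 as lower and 15 did not pass, 9 were past the fold limit higher on both arrays, and over all genes these shares were 14.4% higher, 12.6% lower and 3.29% past the limit. The panel's median was 0.12. Since its members were picked with the values known, these counts describe the panel and are no test of it. Among the enzymes, Mthfd2, of mitochondrial one-carbon metabolism, gave 1.29 on the Cy5 array and 0.75 on the Cy3 array, or 2.03-fold (adjusted p = 2.14e-05). Asns, asparagine synthetase, gave 0.90 and 0.43, Phgdh, the first enzyme of serine synthesis, 0.49 and 0.34, and Aldh18a1, the first enzyme of proline synthesis, 0.52 and 0.38. All 4 were past the fold limit on both arrays. Slc7a1, the carrier of cationic amino acids whose promoter is printed above, gave 0.73 on the Cy5 array and 0.76 on the Cy3 array (adjusted p = 8.59e-05). Sesn2, a leucine sensor that restrains mTORC1, gave 0.93 on the Cy5 array and 0.76 on the Cy3 array (adjusted p = 0.000149).

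Among the transcription factors of the panel, 4 passed as higher and the ATF mRNAs Atf4 and Atf5 did not. Atf3 gave 0.66 and 0.55, Jdp2 0.65 and 0.33, Ddit3, the stress factor CHOP, 0.33 and 0.41, and Cebpg 0.29 and 0.40, all passed as higher. Chac1 gave 0.51 and 0.27 and Nupr1, a small stress-response protein, 0.17 and 0.23, and both passed. The probes of Chac1 disagreed, and by its probe with the smaller change, with a mean of 0.16, it did not pass. Nupr1 has 1 probe, and its adjusted p was 0.0604 in the fit with 1 probe a gene. Atf5 gave 0.12 and -0.19, with the arrays opposed. Atf4 itself gave -0.086 and -0.21 and did not pass (adjusted p = 0.135), with the sign turned to 0.13 in the ratios as deposited. Fgf21, a hormone gene that ATF4 is known to drive in liver, gave -0.19 and -0.55 and passed as lower, and its promoter holds the core too. Trib3, a pseudokinase, gave 0.61 and -0.064, with the arrays opposed. Of the 25 panel promoters with an entry, 6 hold the core, 4 of them among the 10 with an entry that passed as higher. At 11 over 5 weeks the values were 0.50 and -0.035 for Mthfd2, 0.40 and -0.19 for Asns, -0.12 and 0.17 for Sesn2, 0.072 and 0.13 for Slc7a1 and 0.017 and 0.01 for Atf3. They were 0.21 and 0.14 for Phgdh, 0.14 and 0.004 for Chac1 and 0.20 and 0.23 for Nupr1, and the last were close to those at 20 weeks.

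**Figure D3:**
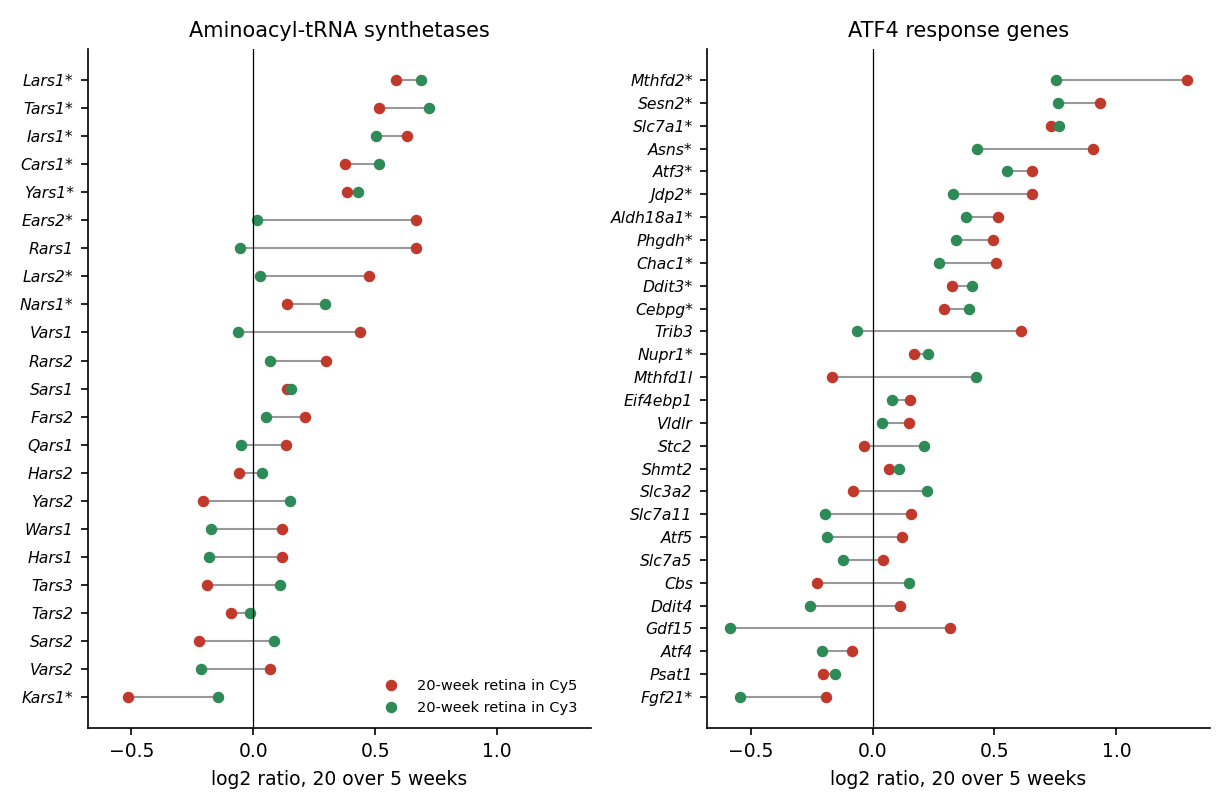
The 23 aminoacyl-tRNA synthetases (left) and the 28 genes of the ATF4 response panel (right), ordered by mean, with the log2 ratio of 20 over 5 weeks on each array; a star marks genes that passed in either direction. Lars1, Tars1, Iars1, Cars1 and Yars1 and the upper 11 panel genes lie right of 0 on both arrays, and most of the others straddle 0.

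Prdx4 was the one peroxiredoxin to pass as higher. Peroxiredoxins remove peroxides with a reactive cysteine, and they differ in where they sit: Prdx1, Prdx2 and Prdx6 mainly in the cytosol, Prdx3 in mitochondria, Prdx5 in several compartments and Prdx4 in the endoplasmic reticulum. All 6 were measured. Prdx2 gave -0.24 on the Cy5 array and -0.50 on the Cy3 array and Prdx1 -0.16 and -0.39, and both passed as lower, each with 2 probes of one sign, although Prdx1 lay at 0.004 in the ratios as deposited. Prdx3 gave -0.06 and -0.33, Prdx5 0.071 and -0.75 and Prdx6 0.39 and -0.003, and these 3 did not pass, the last 2 with the arrays opposed.

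Of 22 measured genes of folding and stress in the endoplasmic reticulum, 4 passed as higher (Prdx4, Bhlha15, Ddit3 and Sel1l) and 4 as lower, 18.2% each and near the 14.4% and 12.6% of all genes, and the median was -0.094 (0.18 as deposited). Canx, the lectin chaperone calnexin, gave -0.49 on the Cy5 array and -0.61 on the Cy3 array, or 1.47-fold lower (adjusted p = 0.00042). P4hb, protein disulfide isomerase, gave -0.27 and -0.49 and Hsp90b1, the chaperone GRP94, -0.093 and -0.51, and both passed as lower. Hspa5, the chaperone BiP, gave -0.13 and -0.10 and Calr, calreticulin, -0.25 and -0.097, and neither passed. Sel1l, of the degradation complex, gave 0.43 and 0.22, but its probes disagreed, and the probe with the smaller change had a mean of -0.015.

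Rod genes lay lower at 20 weeks than the median gene. Of 26 measured, 12 passed as lower (against 12.6% of all genes) and 0 as higher, 4 were past the fold limit lower on both arrays (against 1.74%), and the median was -0.22, although 0.061 as deposited. The median was -0.083 on the Cy5 array and -0.45 on the Cy3 array, so the size rests mostly on the Cy3 array. Rod and cone genes are known targets of the homeobox factor CRX, whose site TAATCC (both strands, chosen after the values were seen) occurs in 5.58% of tested genes' promoters, in 10 of 22 rod promoters (45.5%) and in 5 of the 10 with an entry that passed as lower. The promoters of Rbp3, Prph2 and Guca1a are shown as rod promoters with the site in capitals, which reads GGATTA where it lies on the opposite strand.
Rbp3: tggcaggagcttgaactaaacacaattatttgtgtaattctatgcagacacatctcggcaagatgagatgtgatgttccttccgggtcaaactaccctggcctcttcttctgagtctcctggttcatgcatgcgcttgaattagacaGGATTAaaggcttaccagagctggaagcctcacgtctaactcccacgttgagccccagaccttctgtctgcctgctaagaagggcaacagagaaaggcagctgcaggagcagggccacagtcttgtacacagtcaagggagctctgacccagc
Prph2: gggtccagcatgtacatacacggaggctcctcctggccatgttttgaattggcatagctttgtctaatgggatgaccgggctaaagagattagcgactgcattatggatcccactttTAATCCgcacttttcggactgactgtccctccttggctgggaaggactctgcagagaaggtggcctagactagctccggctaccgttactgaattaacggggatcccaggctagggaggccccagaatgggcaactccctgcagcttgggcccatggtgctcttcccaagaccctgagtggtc
Guca1a: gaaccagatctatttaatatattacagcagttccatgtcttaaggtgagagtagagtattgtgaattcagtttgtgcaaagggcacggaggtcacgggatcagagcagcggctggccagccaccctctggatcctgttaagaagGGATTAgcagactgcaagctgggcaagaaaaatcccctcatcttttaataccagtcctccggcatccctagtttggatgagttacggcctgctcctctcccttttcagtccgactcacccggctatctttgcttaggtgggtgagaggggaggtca
They lie at chr16:9273537-9273836 (Rbp3, plus strand), chr9:21579025-21579324 (Prph2, minus) and chr9:21086392-21086691 (Guca1a, plus), and in all 3 the site begins between 103 and 133 bases before the start.

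In the rod transduction cascade, Gnat1, the alpha subunit of rod transducin, gave -0.12 on the Cy5 array and -0.71 on the Cy3 array (adjusted p = 0.00779). Gngt1, its gamma subunit, gave 0.21 and -0.46, and Sag, rod arrestin, 0.42 and -0.71, with the arrays opposed in both. The lowest means of the list belonged to Guca1b and Rcvrn. Guca1b, the guanylate cyclase activator GCAP2, gave -0.61 on the Cy5 array and -0.83 on the Cy3 array, or 1.65-fold lower (adjusted p = 0.000149), and Rcvrn, recoverin, gave -0.44 on the Cy5 array and -0.88 on the Cy3 array, or 1.58-fold lower (adjusted p = 0.000464). Guca1a, the activator GCAP1, passed at -0.11 and -0.35. Among structural genes, Prph2, a protein of disc rims, gave -0.18 and -0.80, and Prom1, a membrane protein of new discs, -0.32 and -0.32. Rbp3, the retinoid carrier between photoreceptors and pigment epithelium, gave -0.38 on the Cy5 array and -0.61 on the Cy3 array and was negative in all 4 probes on both arrays, between -0.13 and -0.81. Cngb1, a subunit of the rod channel, gave -0.64 and -0.17. At 11 over 5 weeks Guca1b gave -0.41 and -0.39, Rcvrn -0.44 and -0.47 and Prph2 -0.22 and -0.82.

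Other photoreceptor and interneuron lists were small. Of 8 cone genes, 2 passed as higher (25%, against 14.4% of all genes) and 0 as lower, and the median was 0.039: Opn1mw, the green cone opsin, gave 0.30 on the Cy5 array and 0.48 on the Cy3 array, and Pde6c, the cone phosphodiesterase, 0.36 and 0.14. The cone median was -0.054 on the Cy3 array alone. Of 9 bipolar genes, 3 passed as lower (33.3%, against 12.6%), namely Prkca at -0.30 and -0.27, Pcp2 at -0.36 and -0.39 and Car8 at -0.41 and -0.24, and the median was -0.091 (0.19 as deposited). Of 17 amacrine and horizontal cell genes, 2 passed as lower (11.8%) and 0 as higher, near the background share, with a median of -0.027 (0.25 as deposited).

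Ganglion cell genes and synaptic vesicle genes lay lower. Of 16 ganglion cell genes, 6 passed as lower, 4 of them past the fold limit on both arrays, and 1 as higher, around a median of -0.13 (0.15 as deposited). The share passed as lower was 37.5%, against 12.6% of all genes, and the median was -0.019 on the Cy5 array and -0.19 on the Cy3 array, so the shift rests mostly on the Cy3 array. Chrnb3, a nicotinic receptor subunit, gave -0.87 on the Cy5 array and -0.40 on the Cy3 array, Nrn1, neuritin, -0.42 and -0.73, Nefh, the heavy neurofilament, -0.67 and -0.36, and Nefl, the light neurofilament, -0.44 and -0.52, and these 4 were past the fold limit. Nefm, the middle neurofilament, gave 0.036 and -0.36 and did not pass. Uchl1, a neuronal ubiquitin hydrolase, gave -0.062 and -0.58 and Thy1 -0.40 and -0.22, and both passed. Of 32 synaptic vesicle genes, 14 passed as lower (43.8%) and 2 as higher (Syt2 and Stx1a), with a median of -0.18 (0.098 as deposited). Sncb, beta-synuclein, gave -0.48 on the Cy5 array and -0.65 on the Cy3 array and Rab3a, the GTPase of vesicle release, -0.33 on the Cy5 array and -0.72 on the Cy3 array, the 2 members past the fold limit. Syp, synaptophysin, gave -0.069 and -0.83, Amph, amphiphysin, -0.75 and -0.25, Cplx2, complexin 2, -0.16 and -0.62, and Syt11 -0.47 and -0.30, all passed as lower. Syn1, a synapsin, passed at -0.22 and -0.27 (not by its smaller probe, at -0.084), and Syn2 at -0.19 and 0.17 and Syn3 at 0.25 and -0.41 did not. Over the Rab GTPases, which direct vesicle traffic in all cells, 16 of 49 passed as lower (32.7%) and 8 as higher (16.3%, against 14.4%) around a median of -0.14 (0.14 as deposited).

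Among the glia, Müller cell and astrocyte genes lay lower and part of the myelin genes higher. Of 21 Müller cell and astrocyte genes, 12 passed as lower and 2 as higher (Crym and Aqp4), with a median of -0.27 (0.006 as deposited). The share passed as lower was 57.1%, against 12.6% of all genes, and the median was -0.054 on the Cy5 array and -0.23 on the Cy3 array. Cd9, a tetraspanin, gave -0.56 on the Cy5 array and -0.55 on the Cy3 array, and Vim, the intermediate filament vimentin, -0.40 on the Cy5 array and -0.50 on the Cy3 array, the 2 members past the fold limit. Glul, glutamine synthetase, gave -0.052 and -0.84, Car14, a membrane carbonic anhydrase, -0.044 and -0.74, and Hes1, a Notch target, -0.049 and -0.68, so that these rest on the Cy3 array, while Cav1, caveolin 1, at -0.64 and -0.095, rests on the Cy5 array. The 2 probes of Hes1 disagreed, and by the one with the smaller change, with a mean of -0.038, it did not pass. Slc1a3, the glial glutamate carrier, gave -0.37 and -0.27 and passed. Gfap, the filament of astrocytes and reactive Müller cells, gave 0.011 and -0.23 and did not pass. Of 13 myelin genes, 6 passed as higher (46.2%, against 14.4%) and 1 as lower, with the median at 0.26. On the single arrays the myelin median was smaller, at 0.11 on the Cy5 array and 0.17 on the Cy3 array. None of the 13 was higher past the fold limit. Mag gave 0.50 and 0.15, Ugt8 0.45 and 0.17 and Mog 0.42 and 0.18, and Fa2h, a hydroxylase of myelin lipids, 0.11 and 0.42 over 4 probes, although it did not pass by the probe with the smallest change (0.13). Olig1, an oligodendrocyte factor, gave 0.40 and 0.14, and Mbp, at -0.13 and 0.19, did not pass. Cnp, an enzyme of oligodendrocytes, went the other way at -0.69 on the Cy5 array and -0.81 on the Cy3 array, or 1.68-fold lower (adjusted p = 0.000182).

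**Figure D4:**
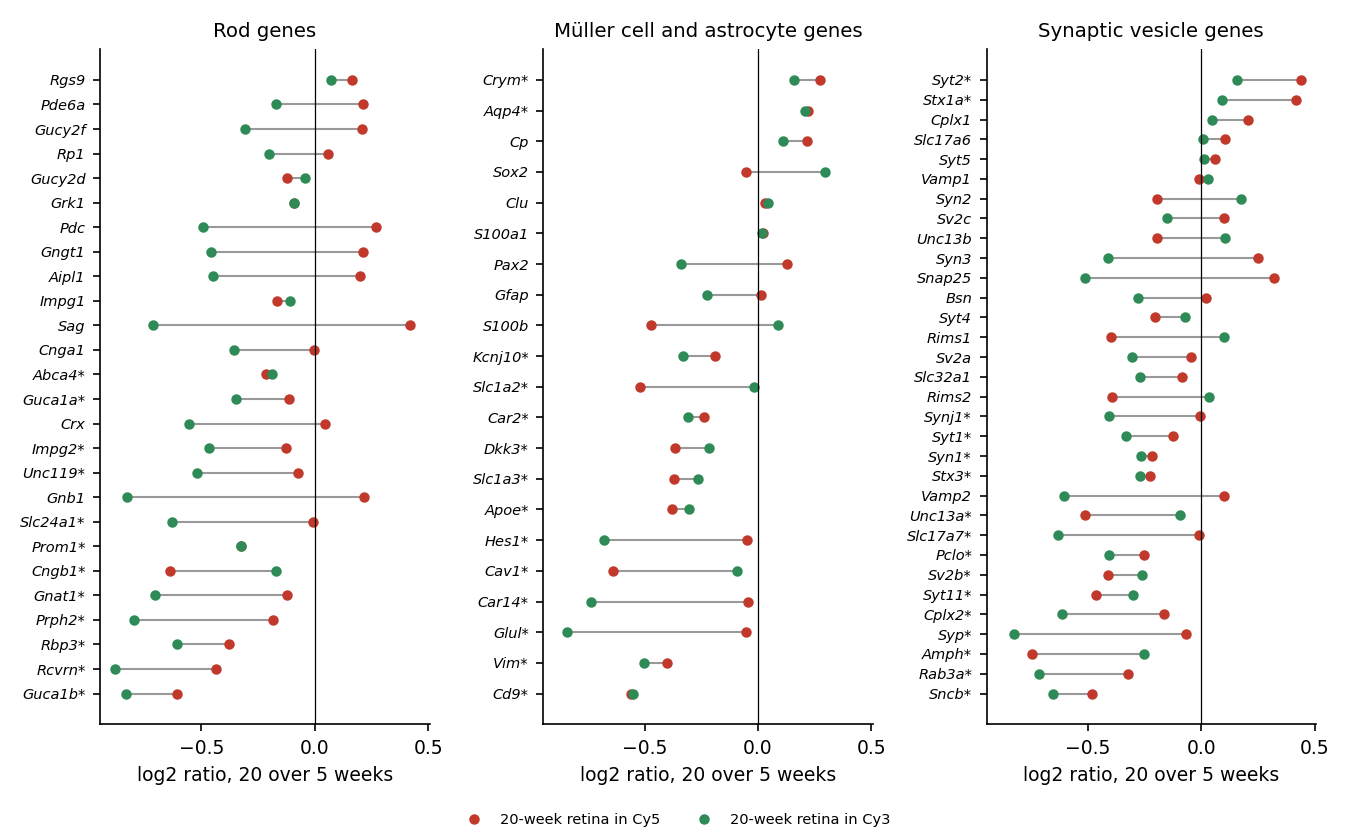
The 26 rod, 21 Müller cell and astrocyte and 32 synaptic vesicle genes, ordered by mean, with the log2 ratio of 20 over 5 weeks on each array; a star marks genes that passed in either direction. The lowest rod genes, Guca1b and Rcvrn, lie left of 0 on both arrays, and for many rod genes the Cy3 array lies farther left than the Cy5 array.

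Microglia and leukocyte genes were mostly without a call. Of 19, 3 passed as higher and 0 as lower, near the share of all genes, with a median of 0.083. Ncf1, a subunit of the phagocyte NADPH oxidase, gave 1.26 on the Cy5 array and 0.56 on the Cy3 array, or 1.87-fold (adjusted p = 5.93e-05). Tyrobp, the adaptor of microglial receptors, gave 0.61 and 0.25, and Csf1r, the receptor that microglia need to survive, 0.19 and 0.22, with an adjusted p of 0.0533 in the fit with 1 probe a gene. Cx3cr1 at 0.12 and -0.06 and Itgam at 0.65 and -0.089, also microglial, had arrays of opposite sign. Of 7 class I and II MHC genes, 3 passed as higher (42.9%, against 14.4% of all genes). The family's median was 0.63 on the Cy5 array and 0.058 on the Cy3 array, so the shift rests mostly on the Cy5 array. The 3 were RT1-Db2 at 0.63 and 0.44, RT1-Ba at 0.82 and 0.19 and RT1-CE1 at 0.67 and 0.15. These genes are close relatives whose transcripts a probe may not tell apart. Of 15 vessel genes, 4 passed as lower (26.7%, against 12.6%), 1 as higher and 10 did not pass, around a median of -0.062 (0.21 as deposited). Of genes known from pericytes, Rgs5 gave -0.97 and -0.39, Pdgfrb -1.11 and -0.089, near 0 on the Cy3 array, and Mcam, which endothelium also expresses, 0.53 and 0.68.

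Interleukins and their receptors, signals of the immune system, lay higher. Of 49 measured, 19 passed as higher (38.8%, against 14.4% of all genes) and 0 as lower, 4 were past the fold limit on both arrays (against 3.29% of all genes), and the median was 0.18. The median was 0.18 on the Cy5 array and 0.14 on the Cy3 array. Gene by gene, however, only 25 of the 49 pointed the same way on both arrays, no more than the 53.8% of all genes. Il12b, a subunit of interleukins 12 and 23, gave 0.61 on the Cy5 array and 0.96 on the Cy3 array (adjusted p = 6.58e-05), Il1a 0.68 on the Cy5 array and 0.67 on the Cy3 array (adjusted p = 0.000208), Il20ra 0.39 and 1.11 and Il1r1 0.34 and 0.54. Il20ra passed the fold limit only as the mean of 2 probes, one at 0.16 and 1.99 and the other at 0.62 and 0.23, neither past it on both arrays. Il1b gave 0.74 and 0.037 and Il3 0.07 and 0.68, each near 0 on one array. Of 68 potassium channel genes, 20 passed as higher (29.4%) and 2 as lower, around a median of 0.12. Among the inward rectifiers, Kcnj11 gave 0.80 on the Cy5 array and 0.66 on the Cy3 array, Kcnj1 0.67 on the Cy5 array and 0.71 on the Cy3 array, Kcnj2 0.69 and 0.38 and Kcnj16 0.12 and 0.68, and the last was under the fold limit on the Cy5 array. Kcnk6 gave 0.44 and 0.60 and Kcng1 0.72 and 0.21. Of these 68, 5 were past the fold limit higher.

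Groups best known from inflammation or from other tissues varied in their shares. Of 49 cytochrome P450 genes, 15 passed as higher (30.6%, against 14.4%) and 0 as lower, and the median was 0.13, but 2 were past the fold limit on both arrays, which is near the background. Of 46 chemokines and cytokines, 15 passed as higher (32.6%) and 1 as lower, while of 18 interferon response genes 3 passed as higher (16.7%) and 2 as lower. Of 11 keratin genes, there was 1 call in each direction, and 1 of 4 casein genes was called, as lower. Of 11 skeletal muscle genes, 5 passed as higher (45.5%, against 14.4% of all genes) and 1 as lower (9.09%, against 12.6%), and the median was 0.32. Of 7 genes of cornea, conjunctiva and iris, 3 passed as higher (42.9%) and 0 as lower. Both shares passed as higher lay above those of the interleukins (38.8%) and the potassium channels (29.4%). Of 5 blood genes, 0 passed in this model, and 0 were past the fold limit on both arrays. The array levels of these genes were not analysed here, so whether their spots were above background was not tested, and their part in the results on interleukins and channels was not tested either.

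Lens genes, which dissected retina can carry, and the crystallins that retina also makes lay lower. Of 10 crystallins, 5 passed as lower (50%, against 12.6% of all genes) and 0 as higher (against 14.4%). Their median was -0.23 (0.044 as deposited). Cryab, the small heat shock protein alpha-B crystallin, gave -0.65 on the Cy5 array and -0.62 on the Cy3 array, and with Cryaa it was past the fold limit on both arrays. The beta crystallins Crybb2 at -0.70 and -0.17, Crybb3 at -0.15 and -0.55 and Cryba4 at -0.31 and -0.27 passed as lower too. Cryba1 at -0.39 and 0.04, Cryba2 at -0.013 and -0.16, Crybb1 at -0.001 and 0.042, Crygd at 0.15 and -0.074 and Crygn at 0.39 and -0.033 did not pass. At 11 over 5 weeks Cryaa gave -0.71 and -0.95, Cryab -0.52 and -0.64 and Cryba4 -1.21 and -1.20. Over the whole lens list, 6 of 14 passed as lower (42.9%) and 1 as higher (7.14%) around a median of -0.13 (0.14 as deposited).

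Several housekeeping machines lay slightly lower, each with a median above 0 as deposited. Of 37 proteasome genes, 15 passed as lower (40.5%, against 12.6% of all genes) and 2 as higher around a median of -0.13 (0.15 as deposited). Psmd7, of the regulatory lid, gave -0.43 on the Cy5 array and -0.50 on the Cy3 array and was the one member past the fold limit. Psmb7 gave -0.63 and -0.054, Psmd2 -0.36 and -0.31, Psmb8, an immunoproteasome subunit, -0.16 and -0.45, Psma2 -0.24 and -0.35 and Psma1 -0.41 and -0.021, all passed as lower, Psma1 not in the fit with 1 probe a gene. Psmc5 passed as higher at 0.58 and 0.014, and Psma3 at -0.23 and -0.053 did not pass. Of 21 citrate cycle genes, 9 passed as lower (42.9%) and 0 as higher around a median of -0.12 (0.16 as deposited). Of the succinate dehydrogenase subunits, Sdhc gave -0.42 and -0.46, Sdhb -0.19 and -0.38 and Sdhd -0.092 and -0.44. Idh3b gave -0.56 and -0.11, the malate dehydrogenase Mdh1 -0.081 and -0.44 and the citrate synthase Cs -0.044 and -0.33, all passed as lower, Cs not in the fit with 1 probe a gene. Idh3a gave -0.11 and 0.063 and did not pass, and Idh3g, with its single low spot, is 1 of the 9.

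Of 17 subunits of the vacuolar proton pump, which acidifies lysosomes and synaptic vesicles, 7 passed as lower (41.2%, against 12.6%) and 3 as higher around a median of -0.19 (0.084 as deposited). On the single arrays the median was nearer 0, at -0.14 on the Cy5 array and -0.11 on the Cy3 array. Atp6ap1 gave -0.32 and -0.54, Atp6v0a1 -0.80 and -0.056, Atp6v1b2 -0.29 and -0.54, Atp6v0e2 -0.14 and -0.67 and Atp6v0c -0.035 and -0.53. Atp6v0d2, a subunit best known from osteoclasts and macrophages, went the other way at 0.47 on the Cy5 array and 0.74 on the Cy3 array, or 1.52-fold higher (adjusted p = 0.00114). Of 31 splicing genes, 9 passed as lower (29%) and 0 as higher around a median of -0.15 (0.12 as deposited), and 0 were past the fold limit.

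**Figure D5:**
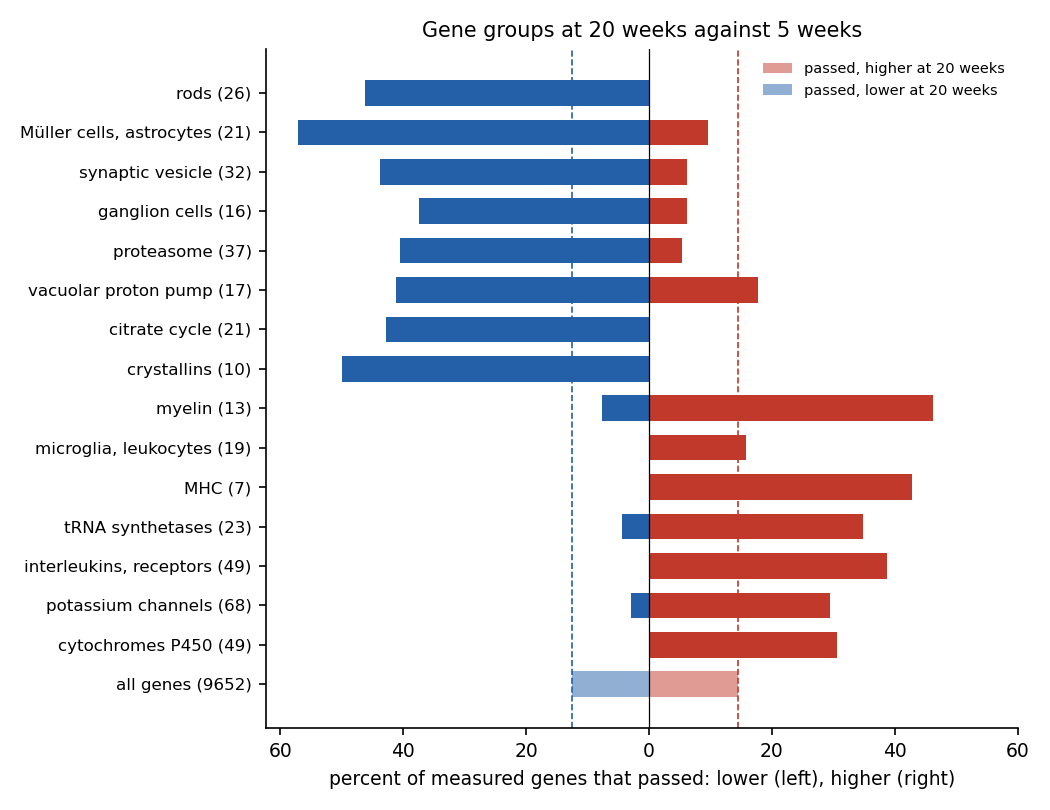
Share of each group's measured genes (number in brackets) that passed as lower (bars to the left) and as higher (bars to the right) at 20 weeks, in percent, with all 9652 genes at the bottom in pale colours and as dashed lines at 12.6% and 14.4%. Rod, Müller cell, crystallin and citrate cycle bars run to the left beyond the dashed line, and myelin, interleukin, synthetase and potassium channel bars to the right.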

How the data were processed

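Retinal RNA of 5-, 11- and 20-week rats was hybridised on 4 two-colour arrays, 2 for each older age with the dyes exchanged. The values are log2 channel ratios as deposited by the authors, and the scale was judged from the values. Their normalization is not given in the sources used here, and spot intensities were not used. The 251 probes that stood at the ceiling of 1e+05-fold were set to missing there, and 0 of them were named.

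Of 22575 probes, 12750 had 1 gene in the platform table, 5 had several and 9820 had none, and only the first were used, of which 12720 had identifiers found in RefSeq. The median over these probes was subtracted from each array (0.54 on the Cy5 array, -0.01 on the Cy3 array), signs were turned to older over 5 weeks, and probes were averaged into 9653 genes, 9652 of them tested (7386 with 1 probe, 2266 with more).

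The test was limma 3.58.1 (lmFit and eBayes, R 4.3.3) over 4 arrays with a gene-wise dye term, 1 residual degree of freedom and 8.83 prior degrees of freedom, adjusted by Benjamini-Hochberg. The dye term assumes an equal dye effect on all 4 arrays. The model was tried on simulated data that were built with this equal dye effect, so the simulation could not test that assumption. Adjusted p alone gave 1715 genes higher and 1342 lower, and 450 of these disagreed in direction between the arrays and were left out. With 2 arrays, their number limits the precision.

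Members and lists were chosen with earlier results of these data known, the ATF4 panel and both motifs after the values were seen. Genes were named by rule: the 20 highest and 20 lowest that passed, up to 6 passed members and the first 3 measured members of each list described, and all peroxiredoxins and crystallins. Genes named outside it were chosen after their values were seen. Alternatives were ratios as deposited, centring on all probes, no dye term, the 2 arrays alone, 1 probe a gene, a 1.5-fold limit and leaving out each array.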

Additional observations from a re-analysis of the deposited data

Results flagged for a closer look

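The change at 20 weeks was set against that at 11 weeks through the 5-week retina, which both comparisons share, by the contrast of the limma model with a dye term. Since each pair had its own slides, age cannot be told apart from slide. Of the 157 genes named by rule, 63 differed at an adjusted p under 0.05, and many had been named for their size at 20 weeks, so this share is not set against the 4.73% of all genes that differed (343 higher and 114 lower at 20 weeks). Values are log2 differences, 20 minus 11 weeks.

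Of the genes leading at 20 weeks, those above their 11-week value differed by 1.97 for Prdx4, 1.34 for Bhlha15, 1.08 for Alox12e, 1.01 for Slc38a4, 0.98 for Slc30a2, 1.11 for Myc, 0.86 for Scgb1d4, 0.86 for Tas2r107, 0.84 for Insc, 0.81 for Cryzl2, 0.76 for Ccl2, 0.68 for Dhodh, 0.63 for Kmo, 0.47 for Rpf2, 0.42 for Tmc1 and 0.38 for Cd52. Those below it differed by -1.15 for Ltbp2, -1.05 for Ccdc80, -1.05 for Tsks, -0.95 for Col15a1, -0.91 for Rap1gds1, -0.89 for Zfp385a, -0.88 for Cnp, -0.84 for Pde1a, -0.83 for Uty, -0.79 for Pan3, -0.76 for Col4a3, -0.70 for Rab15, -0.59 for Rgs10, -0.57 for Fstl1, -0.51 for Gapdhs and -0.49 for Sparc. Of the 20 highest, Slc34a1 (adjusted p = 0.221), Tcam1 (0.142) and Gchfr (0.0598) did not pass this contrast. Of the 20 lowest, Cryaa, Hmgn2, Guca1b and Idh3g did not pass it.

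Among the synthetases and the ATF4 panel, the difference was 0.87 for Iars1, 0.74 for Lars1, 0.73 for Tars1, 0.72 for Cars1, 0.82 for Sesn2, 0.79 for Mthfd2, 0.67 for Ddit3, 0.65 for Slc7a1, 0.64 for Jdp2, 0.64 for Cebpg, 0.59 for Atf3, 0.56 for Asns, 0.55 for Atf4 and 0.43 for Aldh18a1. Of the 8 synthetases that passed as higher, 4 differed from 11 weeks, and Yars1, Nars1, Lars2 and Ears2 did not pass this test. Of the 12 such panel genes 9 differed, and Phgdh (0.24, adjusted p = 0.174), Chac1 (0.32, adjusted p = 0.0893) and Nupr1 (-0.016, adjusted p = 0.949) did not pass it. For Atf4 both means were negative, at -0.15 at 20 weeks and -0.70 at 11 weeks. The 20-week value did not pass against 5 weeks, and it turned to 0.13 as deposited. Immune genes differed by 1.15 for Ncf1, 0.81 for Il20ra, 0.78 for Il1a, 0.59 for Tyrobp and 0.58 for RT1-Ba, and potassium channels by 0.65 for Kcnj1, 0.56 for Kcnj2, 0.53 for Kcnj11 and 0.43 for Kcnk6. The difference was 0.92 for Cryba4, 0.61 for Atp6v0d2, 0.52 for Gngt1 and 0.44 for Sel1l, and negative at -0.48 for Hes1, -0.44 for Sncb, -0.39 for Vim and -0.38 for Nefh. Cryba4 lay at -0.29 at 20 weeks and -1.21 at 11 weeks.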

How the results depend on the processing

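Centring on all probes kept both counts within 1.5 times, and so did 1 probe a gene, where Sel1l turned to -0.015. Centred on all probes, 4 named genes lost their call, among them Csf1r at 0.19 and Ears2 at 0.33, and 3 list medians moved without a change of sign. With 1 probe a gene, 10 named genes lost their call: Chac1 0.16, Cs -0.19, Csf1r 0.21, Fa2h 0.13, Hes1 -0.038, Idh3g -0.12, Il1b 0.38, Nupr1 0.20, Psma1 -0.22, Syn1 -0.084. Of these, Cs, Csf1r, Nupr1 and Psma1 have 1 probe, so their value stayed and only the adjusted p moved. In the same fit with 1 probe a gene, 6 list medians moved by more than the spread between arrays, with no change of sign. Without a dye term 0 genes passed in either direction (888 at an unadjusted p under 0.05, smallest adjusted p 0.182), and with the 2 arrays alone 5 passed as higher and 0 as lower (748 unadjusted). Leaving out either array with no dye term passed 0 higher genes and between 0 and 1 lower. Leaving out an array with a dye term leaves no residual degree of freedom, so only values could be given. At 1.5-fold on both arrays, 76 genes were higher and 16 lower. As deposited, 132 passed as higher and 0 as lower, and 919 and 9 were past the fold limit, since the Cy5 array's median is 0.54. The signs of small negative changes therefore turned: log2 values as deposited were Atf4 0.13, Calr 0.11, Cryba1 0.10, Cryba2 0.19, Cs 0.088, Gfap 0.17, Gngt1 0.15, Hspa5 0.16, Idh3a 0.25, Mdh1 0.015, Nefm 0.12, Prdx1 0.004, Prdx3 0.083, Psma1 0.061, Psma3 0.13, Sag 0.13, Sdhd 0.013, Syn1 0.035, Syn2 0.27, Syn3 0.20. The list medians turned likewise, to rod photoreceptor 0.061, ganglion cell 0.15, synaptic vesicle 0.098, Müller cell and astrocyte 0.006, citrate cycle 0.16, endoplasmic reticulum folding and stress 0.18, proteasome 0.15, vacuolar proton pump family 0.084, amacrine and horizontal cell 0.25, lens 0.14, bipolar cell 0.19, vessel 0.21, splicing 0.12, Rab GTPase family 0.14, crystallin family 0.044. Leaving out each 20-week array in turn, from the dye-term model for genes and from the other array for list medians, gave these ranges across 0: Cryba2 -0.20 to 0.025, Psma3 -0.53 to 0.24, Crybb1 -0.11 to 0.15, Cx3cr1 -0.16 to 0.22, Itgam -0.47 to 1.02, Mbp -0.066 to 0.13, Syn2 -0.038 to 0.018, Syn3 -0.29 to 0.13, cone photoreceptor -0.054 to 0.13, pigment epithelium and choroid -0.023 to 0.071, blood -0.014 to 0.25. No paired analysis was possible because the replicate numbers follow accession order and mark no shared animals or batch.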

Other observations

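The pigment epithelium adjoins the retina and can come along in dissection. Of 8 genes of pigment epithelium and choroid, 2 passed as higher (25%, against 14.4% of all genes) and 1 as lower (12.5%, against 12.6%). Their median was 0.083. Tyr, tyrosinase, the melanin enzyme that albino rats lack in active form, gave 0.66 on the Cy5 array and 0.89 on the Cy3 array, or 1.71-fold higher (adjusted p = 0.000122, limma). Lrat, the enzyme that esterifies retinol in pigment epithelium, gave 0.21 and 0.19, and Tyrp1 passed as lower at -0.45 and -0.23. Rpe65, which isomerises retinoids there, gave 0.11 and -0.029 and did not pass. These 4 genes were chosen after their values were seen.

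Probes with no gene in the platform table, left out above, numbered 9368 with values on both 20-week arrays. Of these, 303 were higher and 145 lower by at least 0.32 (log2) on both.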
